A study of Homo sapiens with 14 samples.

Results

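The MYC, MAX and MXD network is a family of transcription factors of the basic helix-loop-helix leucine zipper class that share the partner MAX. Its members here were 10 genes given by symbol, MYC, MYCN, MYCL, MAX, MXD1, MXD3, MXD4, MXI1, MNT and MGA. Each symbol matched 1 Ensembl gene among the 58825 genes of each count table. RNA was sequenced from OVCAR-3, CAOV3 and SKOV3, established lines of human ovarian cancer, as 22 libraries in 14 deposited samples. GSK-J4, an inhibitor of the H3K27 demethylases KDM6A and KDM6B, was set against GSK-J5, the isomer used as its inactive control, both at 2.5 µM.

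The groups were OVCAR-3 with GSK-J4 or GSK-J5 for 48 h (2 libraries per compound), and OVCAR-3, CAOV3 and SKOV3 with GSK-J4 or GSK-J5 for 72 h (3 libraries per compound in each line). Replicates 1 and 2 formed a first library set, for which the labels name a stripped medium during treatment. Replicate 3 formed a second set, with another RNA kit, poly(A) selection and a medium with serum in the labels. The OVCAR-3 library of GSK-J4 at 72 h, replicate 3, had a shortened column name and was assigned as the sample left without a column, and results are also given without it. Cells without any compound were not analysed here, and each effect below sets GSK-J4 against GSK-J5. Whether replicates came from separate cultures is not stated, and p-values then reflect only how much these libraries vary, which may be technical. Each line was grown in its own basal medium. In bulk libraries, fewer cells of a kind and less RNA per cell cannot be told apart.

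MYC, MYCN and MYCL bind DNA as dimers with MAX and activate genes of ribosome assembly, metabolism and growth. MXD1, MXD3, MXD4 and MXI1 bind the same DNA element, the E-box, as dimers with MAX, and repress through SIN3 and histone deacetylases. MNT is a broadly expressed repressor of the same kind, and MGA, which also carries a T-box domain, holds together a Polycomb complex known as PRC1.6. MYC is a common target of gene gain in ovarian carcinoma.

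Total counts per library lay between 24037007 and 37990707. Levels are given as CPM, counts scaled to the library total after correction by the trimmed mean of M-values (TMM). The limit that a count of 0 allows, 3 counts, equals 0.079 CPM in the deepest library. Epithelial and ovarian carcinoma markers summed to 6201 to 10268 CPM with GSK-J4 and 9844 to 10783 CPM with GSK-J5 in OVCAR-3, to 6977 to 7316 CPM and 6554 to 6686 CPM with these compounds in CAOV3, and to 975 to 1933 CPM and 1029 to 1985 CPM in SKOV3. Leukocyte markers stayed at 114 CPM or below in summed level, endothelial markers at 7.76 CPM or below, and fibroblast markers reached 538 CPM in SKOV3. At 48 h in OVCAR-3, 1 of the 8 epithelial markers was higher with GSK-J4 and 4 were lower, with KRT7 at log2 1.42 and WT1 at -2.08, and the part of these markers in the results was not tested. KDM6B, a target of the compound, averaged 170 CPM with GSK-J4 and 93.8 CPM with GSK-J5 in OVCAR-3 at 48 h (log2 0.89, SE 0.16, adjusted p = 0.0188 by edgeR's quasi-likelihood test), and KDM6A averaged 32.8 and 26.7 CPM there (adjusted p = 0.161). The test gave KDM6A and KDM6B adjusted p-values of at least 0.134 in the 3 comparisons at 72 h. Without replicate 3, KDM6B passed as lower with GSK-J4 in CAOV3 (log2 -0.63, SE 0.16, adjusted p = 0.0164), against 14.1% of all genes in that fit.

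The promoter windows of the members show where E-box letters lie near their start sites. RefSeq windows around the start sites on GRCh38.p14 numbered 14 for 9 of the members, all but MYC. The palindrome CACGTG was found in 2 of the 14 windows, MXD4 and MNT, against 7.26% of all 35116 windows. The related letters CACGCG, searched as CACGCG and as their reverse complement CGCGTG, were found in 3 of the 14 windows, in MXD3, MXI1 and MGA, against 11.4% of all windows. The windows of MYCN, MYCL, MXD1 and MAX held neither, and no match of one motif overlapped the other. Shown here are the windows of the MAX partners MXD4, MXD3 and MXI1, whose response to GSK-J4 differed between OVCAR-3 and the other lines by the test below, 5′ to 3′ on the gene's strand, with the E-box letters in capitals.
MXD4, chr4:2262060-2262359, minus strand: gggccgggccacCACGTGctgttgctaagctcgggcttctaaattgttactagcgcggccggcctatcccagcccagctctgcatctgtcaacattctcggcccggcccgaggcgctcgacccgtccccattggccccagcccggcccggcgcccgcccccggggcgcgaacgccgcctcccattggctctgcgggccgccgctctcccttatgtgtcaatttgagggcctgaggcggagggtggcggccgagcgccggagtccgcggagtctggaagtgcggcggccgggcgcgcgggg
MXD3, chr5:177312703-177313002, minus strand: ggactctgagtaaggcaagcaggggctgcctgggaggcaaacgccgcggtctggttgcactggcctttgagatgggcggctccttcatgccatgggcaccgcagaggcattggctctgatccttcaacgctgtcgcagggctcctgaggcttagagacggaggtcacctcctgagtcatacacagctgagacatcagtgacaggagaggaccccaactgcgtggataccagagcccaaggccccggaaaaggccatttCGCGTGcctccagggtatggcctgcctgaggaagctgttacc
MXI1, chr10:110225746-110226045, plus strand: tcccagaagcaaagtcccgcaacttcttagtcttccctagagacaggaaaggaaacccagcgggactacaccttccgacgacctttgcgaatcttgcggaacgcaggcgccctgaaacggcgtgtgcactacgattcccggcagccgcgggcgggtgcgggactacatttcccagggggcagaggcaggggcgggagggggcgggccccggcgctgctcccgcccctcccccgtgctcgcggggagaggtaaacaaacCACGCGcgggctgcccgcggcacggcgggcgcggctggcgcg
CACGTG lay at position -238 from the MXD4 start site, and the related letters lay at position 9 in MXD3 and in the third window of MXI1. MXD4 is on chromosome 4, MXD3 on chromosome 5 and MXI1 on chromosome 10. A match is a description of the letters and not a binding site.

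The network differed between the compounds in OVCAR-3 at 48 h, where MYC, the growth-driving oncoprotein, rose 5.46-fold (2 libraries per compound, errors below) and its partner MAX rose 1.73-fold, while MYCN was 3.09-fold and the repressor MXD3 2.82-fold lower with GSK-J4. These 4 of the 10 members passed the test, against 18.9% of the 17402 genes tested. In CAOV3 and SKOV3 none of the 9 members tested passed at 72 h. In OVCAR-3 at 72 h none passed with all 3 replicates, and 9 of 10 passed in the first library set alone, where most genes of the table passed too.

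**Figure D1:**
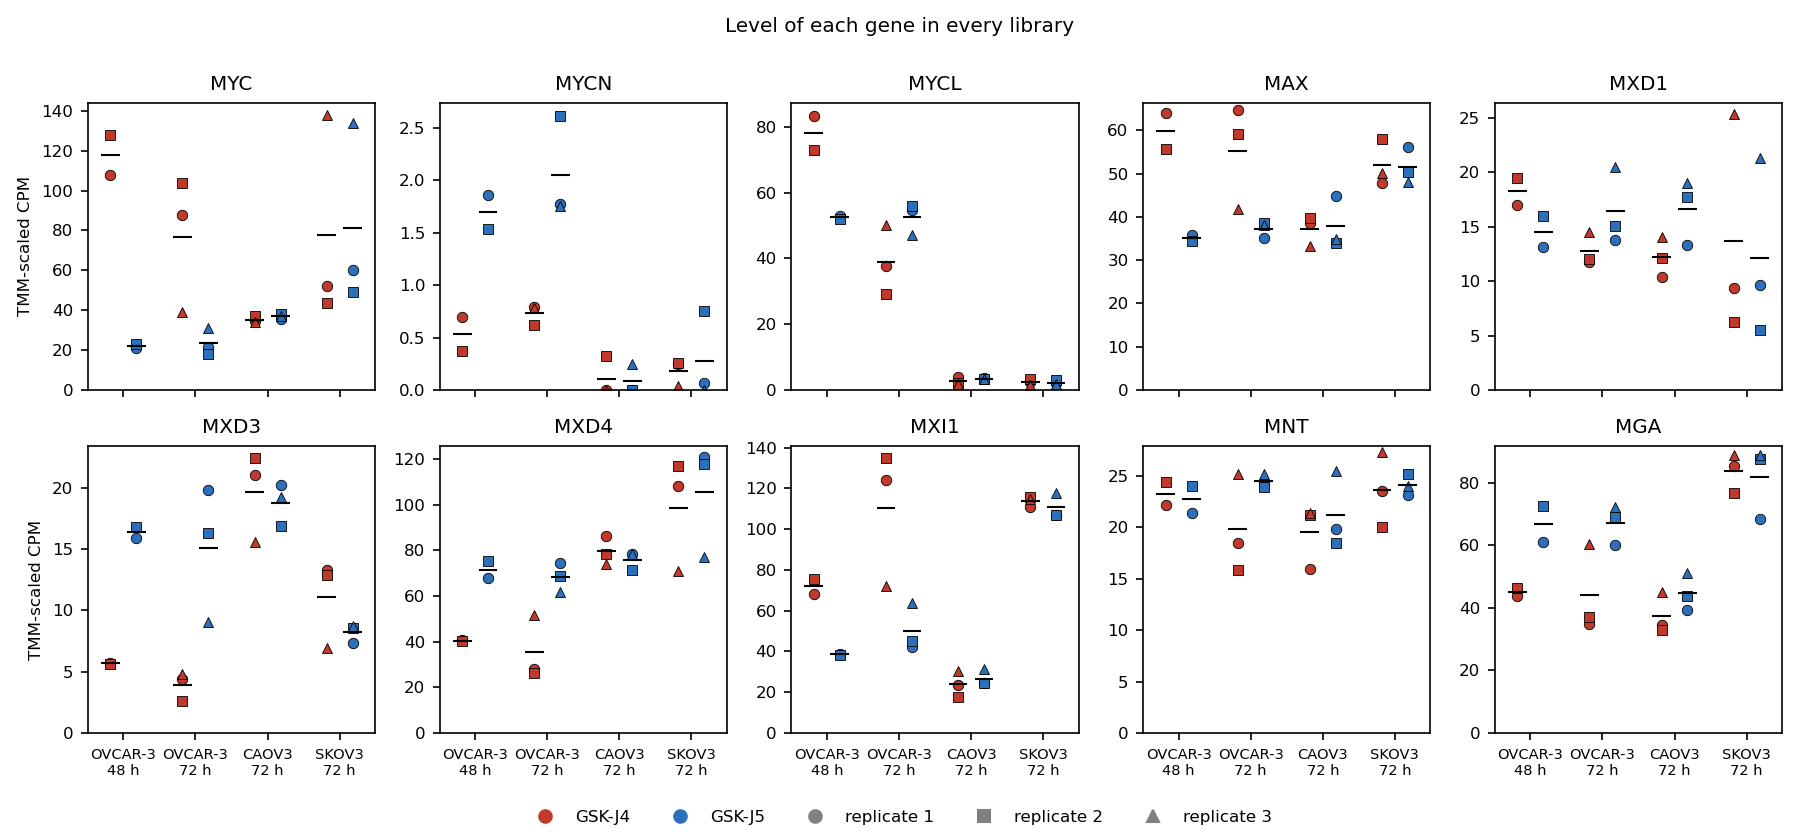
TMM-scaled CPM (linear axis from 0) of each of the 10 genes in all 22 libraries, by line and time, with GSK-J4 left of GSK-J5, marker shape for the replicate and a bar for the group mean. MYC lies at 108 and 128 CPM with GSK-J4 against 21.1 and 23.0 CPM with GSK-J5 in OVCAR-3 at 48 h, while the compounds overlap in CAOV3 and SKOV3.

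Among the MYC family, MYC had 108 and 128 CPM with GSK-J4 in OVCAR-3 at 48 h, against 21.1 and 23.0 CPM with GSK-J5. Both GSK-J4 libraries were far above both GSK-J5 libraries. The fitted change was log2 2.45 (SE 0.48, adjusted p = 0.022 by edgeR's quasi-likelihood test). MYC kept this direction in the 20 alternatives run, between log2 2.24 and 2.55, and passed in 13 of them.

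MYCN, a family member best known from neuroblastoma, was low throughout. It had 20 and 10 counts with GSK-J4 at 48 h, against 54 and 50 counts with GSK-J5, or 0.700 and 0.368 CPM against 1.86 and 1.54 CPM. The groups did not overlap, and the change was log2 -1.63 (SE 0.45, adjusted p = 0.042). MYCN shares 98 of its 2602 exon bases with its antisense gene MYCNOS. Since no strand setting is stated, reads of these shared bases cannot be assigned to 1 gene. Exon bases are also shared with another gene by MNT (1065 bases), MGA (510), MXD1 (237), MYCL (226), MXI1 (205), MAX (184) and MXD4 (80).

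MYCL, a family member first found in lung cancer, had 83.3 and 73 CPM with GSK-J4 at 48 h, against 53.0 and 52.0 CPM with GSK-J5. Both GSK-J4 libraries were higher, with a fitted log2 of 0.60 (SE 0.21, adjusted p = 0.0698) that did not pass.

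MAX, the shared partner of the MYC and MXD proteins, had 64.0 and 55.6 CPM with GSK-J4 at 48 h, against 35.9 and 34.5 CPM with GSK-J5. The groups were well apart (log2 0.79, SE 0.21, adjusted p = 0.0401).

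Among the MXD repressors, MXD3, known from proliferating cells in S phase, had 5.71 and 5.64 CPM with GSK-J4 at 48 h, against 15.9 and 16.8 CPM with GSK-J5. The replicates of each compound lay close together and the groups far apart (log2 -1.50, SE 0.37, adjusted p = 0.0348). MXD3 shares 1158 exon bases with PRELID1 on the other strand and 926 with RAB24 on its own strand. PRELID1 averaged 149 CPM with GSK-J4 and 102 CPM with GSK-J5 at 48 h, and RAB24 5.91 and 1.99 CPM, so both neighbours lay higher with GSK-J4 where MXD3 was lower (log2 0.56, adjusted p = 0.0474 for PRELID1; log2 1.6, adjusted p = 0.0749 for RAB24).

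MXD4, linked to differentiated cells, had 40.8 and 40.1 CPM with GSK-J4 at 48 h, against 67.8 and 75.2 CPM with GSK-J5. The groups did not overlap, but the log2 of -0.79 (SE 0.24) missed the threshold with an adjusted p of 0.051. MXI1, another SIN3-binding repressor, had 68.4 and 75.7 CPM with GSK-J4 against 38.8 and 38.4 CPM with GSK-J5 (log2 0.93, SE 0.34, adjusted p = 0.082). MXI1 thus lay on the high side with GSK-J4 where MXD3 and MXD4 lay on the low side. MXD1, a gene of terminal differentiation, had 17.0 and 19.5 CPM with GSK-J4 and 13.1 and 16.0 CPM with GSK-J5 (adjusted p = 0.181).

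MNT had 22.1 and 24.4 CPM with GSK-J4 at 48 h, and 21.4 and 24 CPM with GSK-J5. These values overlapped, with an interval of the log2 difference between -0.32 and 0.44. MGA had 43.9 and 46.4 CPM with GSK-J4 against 61.2 and 72.7 CPM with GSK-J5, and its log2 of -0.54 (SE 0.17) had an adjusted p of 0.0549. The compounds did not overlap for MGA.

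Counted by overlap at 48 h, 5 members lay higher in both GSK-J4 libraries, 4 lay lower and MNT overlapped. With 2 libraries per compound, 37.8% of all genes tested lay higher without overlap and 42.8% lower, 80.7% in all, so the count is near the background. By the test, 2 members were higher against 11.3% of all genes, and 2 were lower against 7.63%. With library totals in place of TMM, an alternative chosen after seeing the data, the median log2 of all genes was -0.24 at 48 h against -0.03, MAX no longer passed (0.58), and MNT moved to the low side (-0.15). The calls at 48 h rest on few libraries. Leaving out any of the 4 libraries of 48 h left 0 members called. Without the GSK-J4 library of 72 h 1 member was called for replicate 1 and 3 for replicate 2, and without the GSK-J5 library of 72 h 2 for replicate 1 and 1 for replicate 2. The count of all genes called also changed as libraries were left out, over a range given in the last section. A change in members cannot be told from that change in all calls. Without replicate 3 of 72 h 9 members were called at 48 h, MYC, MAX, MXI1, MYCL and MXD1 as higher and MYCN, MXD3, MXD4 and MGA as lower, against 59% of the 17090 genes then tested (29.1% higher and 29.8% lower).

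**Figure D2:**
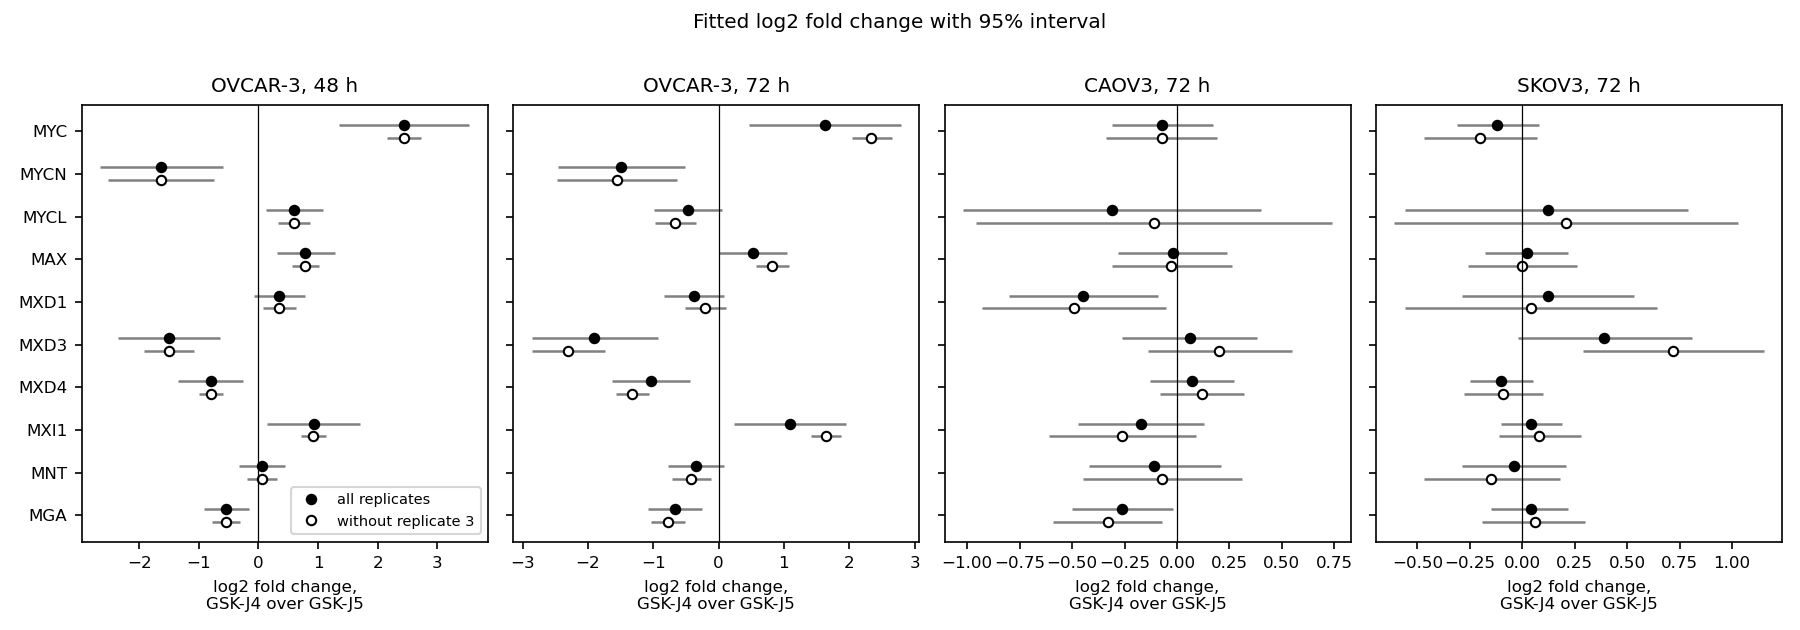
Fitted log2 fold change of each gene, GSK-J4 over GSK-J5, with 95% interval from edgeR, in the 4 comparisons (each panel has its own linear axis). Filled points use all replicates and open points leave out replicate 3, which narrows the OVCAR-3 intervals, while in CAOV3 and SKOV3 the estimates lie within 0.72 of 0 on the log2 scale.

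At 72 h in OVCAR-3, MYC had 87.5, 104 and 38.9 CPM with GSK-J4 in replicates 1, 2 and 3, against 21.6, 18.1 and 31.2 CPM with GSK-J5. All GSK-J4 libraries were above all GSK-J5 libraries, but replicate 3 of the second set stood apart, with a log2 ratio of 0.31 for its pair against 1.99 and 2.49 for the pairs of replicates 1 and 2. The fit over all 6 libraries gave a log2 of 1.63 (SE 0.47, adjusted p = 0.0711). In the first set alone the log2 was 2.34 (SE 0.13), which passed.

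MYCN had 15, 12 and 25 counts with GSK-J4 at 72 h, against 52, 76 and 51 counts with GSK-J5. All GSK-J4 libraries lay below all GSK-J5 libraries in CPM (log2 -1.49, SE 0.39, adjusted p = 0.0698). MYCL had 37.7, 29.1 and 50.3 CPM with GSK-J4, against 54.9, 56.0 and 47.2 CPM with GSK-J5, so the pairs of replicates 1 and 2 were lower and the pair of replicate 3 was higher. MAX had 64.8, 59.1 and 41.8 CPM with GSK-J4 and 35.2, 38.5 and 38.1 CPM with GSK-J5. The MAX groups did not overlap, although replicate 3 lay only 3.7 CPM above its own control (log2 0.53, SE 0.21, adjusted p = 0.111).

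MXD3 had 4.40, 2.57 and 4.81 CPM with GSK-J4 at 72 h, against 19.8, 16.3 and 9.02 CPM with GSK-J5. It was lower in all 3 pairs, by log2 ratios of -2.05, -2.45 and -0.84, and its fitted log2 was -1.90 (SE 0.39, adjusted p = 0.0698). MXD4 had 28.0, 26.4 and 51.6 CPM with GSK-J4, against 74.6, 68.6 and 61.6 CPM with GSK-J5. MXD4 was likewise lower in every pair without overlap (log2 -1.03, SE 0.24, adjusted p = 0.0698). MXI1 had 124, 135 and 71.9 CPM with GSK-J4, against 42.2, 45.0 and 63.6 CPM with GSK-J5. The repressor MXI1 was the one MXD-type gene whose GSK-J4 libraries all lay higher (log2 1.10, SE 0.35, adjusted p = 0.0745).

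MXD1 had 11.8, 12.0 and 14.5 CPM with GSK-J4 and 13.8, 15.1 and 20.5 CPM with GSK-J5 at 72 h, groups that overlapped. MNT had 18.4, 15.8 and 25.1 CPM with GSK-J4 and 24.3, 23.9 and 25.1 CPM with GSK-J5, equal in the pair of replicate 3. MGA had 34.8, 37.2 and 60.5 CPM with GSK-J4, against 60.2, 69.2 and 72.3 CPM with GSK-J5. MGA was lower in each pair, with an overlap of 1 GSK-J4 library (log2 -0.67, SE 0.17, adjusted p = 0.0698).

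At 72 h in OVCAR-3, 0 of 10 members passed, against 0.0313% of 15966 genes tested, which were 5 genes. With library totals the median log2 of all genes was -0.46 against -0.07. MYC had 1.23 (SE 0.38) and MXI1 0.71 (SE 0.26) there, still on the high side. MAX had 0.14 (SE 0.16), with an interval between -0.26 and 0.54. At an unadjusted p under 0.05, 7075 genes passed, among them MYC, MYCN, MAX, MXD3, MXD4, MXI1 and MGA of the members. DESeq2 called 6 members, against 39.4% of all genes, and a joint fit of both times in OVCAR-3 called 7, against 43.8%. Members without overlap were 3 higher against 23.2% of all genes and 3 lower against 16.1%. In the first set alone 9 of 10 members passed, 3 as higher (MYC, MAX and MXI1) and 6 as lower (MXD3, MYCN, MXD4, MGA, MYCL and MNT), against 71.7% of 16281 genes, and 9 also passed when either replicate 3 library was left out alone. The second set has 1 library per compound and allows no test of its own.

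**Figure D3:**
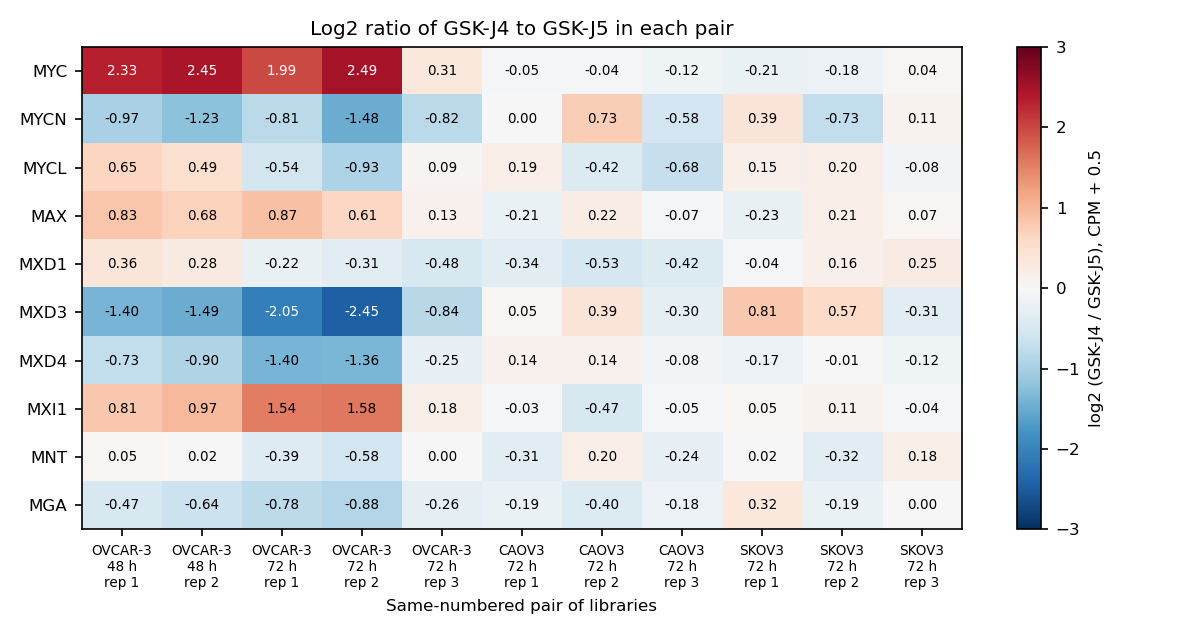
Log2 ratio of GSK-J4 to GSK-J5 (CPM + 0.5) for each gene in the 11 same-numbered pairs, with colour from -3 (blue) to 3 (red). The 4 first-set OVCAR-3 pairs carry the high ratios of MYC, between 1.99 and 2.49, and the pair of replicate 3 has 0.31.

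The effect at 72 h minus that at 48 h was tested in OVCAR-3 for the same members. No member passed, against 0.00575% of 17402 genes, and MYCL had the smallest p-value of the members, with a log2 difference of -1.04 (SE 0.27, unadjusted p = 0.00452, adjusted p = 0.441). MYCL averaged 39.1 CPM with GSK-J4 and 52.7 CPM with GSK-J5 at 72 h, and 78.2 and 52.5 CPM with these compounds at 48 h. MYC had a log2 difference of -0.79 (SE 0.60, adjusted p = 0.876), with an interval between -2.17 and 0.59. Replicate 3 exists at 72 h only, and without it the MYC difference was -0.11 (SE 0.18), with an interval between -0.50 and 0.28. Without replicate 3, MXI1 passed with a larger effect at 72 h (log2 0.71, SE 0.13), and MYCL, MXD1, MXD4 and MNT passed with a lower value at 72 h (log2 -1.27 to -0.49), against 27% of 17090 genes. DESeq2 on all libraries called MYCL alone among the members, against 1.4% of all genes.

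In CAOV3 at 72 h, MYC had 34.4, 37.0 and 33.9 CPM with GSK-J4, against 35.7, 38.1 and 36.9 CPM with GSK-J5. These libraries overlapped, and the interval of the log2 difference ran between -0.31 and 0.17. In OVCAR-3 at 72 h that interval ran between 0.46 and 2.79, where MYC did not pass. MXD3 had 21.0, 22.4 and 15.6 CPM with GSK-J4 and 20.2, 16.9 and 19.2 CPM with GSK-J5. MXD1 came nearest to the threshold, with 10.4, 12.1 and 14.1 CPM with GSK-J4 and 13.3, 17.7 and 19.0 CPM with GSK-J5 (log2 -0.45, SE 0.17, adjusted p = 0.185). MXD1 was lower in all 3 pairs, but the groups overlapped.

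None of the 9 members tested in CAOV3 passed, against 0.318% of 16351 genes (0.0673% higher and 0.251% lower). The first set alone also called none of them, against 14.1% of genes (6.7% higher and 7.38% lower). The unadjusted p was under 0.05 for MXD1 and MGA, which was not set against all genes at that threshold. Their adjusted p-values by edgeR's quasi-likelihood test were 0.185 and 0.254. DESeq2 also called no member, against 4.11% of all genes. MAX, MXD4, MXI1 and MNT had log2 values between -0.17 and 0.07. MYCL, at 1.90 to 4.04 CPM with GSK-J4 and 3.18 to 3.48 CPM with GSK-J5, had an interval between -1.02 and 0.40. MYCN, with 0, 10 and 0 counts with GSK-J4 and 0, 0 and 6 counts with GSK-J5, was too low to be tested. All 10 members overlapped between the compounds, while 12.3% of all genes did not (5.36% higher and 6.98% lower).

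In SKOV3, MYC had 52.1, 43.4 and 138 CPM with GSK-J4, against 60.3, 49.3 and 134 CPM with GSK-J5. Replicate 3 stood apart in both compounds alike, and the fitted log2 of -0.12 had an interval between -0.31 and 0.08. The same libraries stood apart for MXD1, with 9.41, 6.25 and 25.4 CPM with GSK-J4 and 9.67, 5.53 and 21.3 CPM with GSK-J5, and in the other direction for MXD4, with 108, 117 and 70.8 CPM with GSK-J4 and 121, 118 and 77.1 CPM with GSK-J5. Both patterns followed the library set and not the compound. MXD3 had the highest estimate, with 13.3, 12.9 and 6.96 CPM with GSK-J4 and 7.37, 8.52 and 8.73 CPM with GSK-J5 (log2 0.39, SE 0.20, adjusted p = 1).

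None of the 9 members tested in SKOV3 passed, against 0.0435% of 16089 genes (0.0249% higher and 0.0186% lower), and none had an unadjusted p under 0.05. In the first set alone 0 passed as well, against 0.0908% of genes (0.0242% higher and 0.0666% lower). With the replicate number as a block, which treats same-numbered libraries as pairs, 24 genes were called against 7, again with no member among them. DESeq2 called 20 genes, 0.124% of all, and no member. MXI1 lay between 111 and 116 CPM with GSK-J4 and between 107 and 118 CPM with GSK-J5, a narrow band (log2 interval -0.10 to 0.19). MYCN had 8, 10 and 1 counts with GSK-J4 and 2, 25 and 0 counts with GSK-J5 and was not tested. The compounds overlapped for all 10 members, while 3.18% of all genes did not overlap (1.61% higher and 1.57% lower).

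Whether the effect differed between lines was tested at 72 h in 1 fit of the 18 libraries. OVCAR-3 minus CAOV3 differed for 4 of 10 members, against 20.9% of 19274 genes (13.2% higher and 7.74% lower). MYC (log2 1.70, SE 0.41) and MXI1 (1.28, SE 0.31) had the higher effect in OVCAR-3, and MXD3 (-1.94, SE 0.42) and MXD4 (-1.09, SE 0.24) the lower one. OVCAR-3 minus SKOV3 differed for 5 of 10, against 22.6% of genes (13.5% higher and 9.08% lower), with MYC at 1.74 (SE 0.40) and MXI1 at 1.05 (SE 0.30) as higher and MXD3 at -2.27 (SE 0.43), MXD4 at -0.93 (SE 0.24) and MGA at -0.70 (SE 0.20) as lower. The adjusted p-values of these 9 values lay between 0.00562 and 0.0268. With the replicate number as a block, MXD3 still passed against SKOV3 (adjusted p = 0.0385), while MYC (0.0536), MXD4 (0.0639), MGA (0.0694) and MXI1 (0.0804) did not. Against CAOV3, MXD3 (0.0437) and MXD4 (0.0476) still passed with the block, and MYC (0.0558) and MXI1 (0.0562) did not. Both differences use the same OVCAR-3 libraries.

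CAOV3 minus SKOV3 differed for 0 of 10 members and for 0% of all genes, with 1030 genes at an unadjusted p under 0.05 and none of them a member. By DESeq2 it was 0.0363% of genes and no member. The calls of line differences changed with the replicate left out. Leaving out replicate 1 or replicate 2 of every line left 0 members called in each difference. Without replicate 3 there were 7 members for OVCAR-3 minus CAOV3 (41.5% of 19804 genes) and 7 for OVCAR-3 minus SKOV3 (42% of genes). The fit without replicate 3 needs no library set terms and so keeps more degrees of freedom than those without replicate 1 or 2. These counts alone therefore do not show which replicates carry the differences. For OVCAR-3 minus CAOV3, MYC had a log2 of 2.34 (SE 0.20) without replicate 3, against 1.70 (SE 0.41) with all replicates. For OVCAR-3 minus SKOV3, leaving out either compound's OVCAR-3 library of replicate 1 or 2, or either SKOV3 library of replicate 3, left 2 members, and leaving out either SKOV3 library of replicate 1 left 3. With GSK-J5 of OVCAR-3 replicate 1 left out, OVCAR-3 minus CAOV3 kept MXD3, MXD4 and MXI1, and lost the call of MYC. The calls of all genes changed between these fits too, so fewer members called is not particular to the members.

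The members were also compared between the lines without GSK-J4, in the GSK-J5 libraries of 72 h. MYCL had 54.9, 56.0 and 47.2 CPM in OVCAR-3, against 3.48, 3.18 and 3.34 CPM in CAOV3 and 1.99, 2.87 and 1.75 CPM in SKOV3. MYCL was 15.8-fold higher in OVCAR-3 than in CAOV3 (log2 3.98, SE 0.19, adjusted p = 2.7e-07) and 24.1-fold higher than in SKOV3 (log2 4.59, SE 0.20, adjusted p = 1.1e-07). OVCAR-3 had no overlap with either line. MYCN had 52, 76 and 51 counts in OVCAR-3, against 0, 0 and 6 counts in CAOV3 and 2, 25 and 0 counts in SKOV3, so its call for OVCAR-3 over CAOV3 (adjusted p = 0.0275) rests on a line with 6 counts in all, and no fold is given.

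MYC ran the other way, with 21.6, 18.1 and 31.2 CPM in OVCAR-3, 35.7, 38.1 and 36.9 CPM in CAOV3 and 60.3, 49.3 and 134 CPM in SKOV3. The 3 lines did not overlap. It was lower in OVCAR-3 than in CAOV3 (log2 -0.71, SE 0.24, adjusted p = 0.0285) and than in SKOV3 (log2 -1.69, SE 0.24, adjusted p = 0.000216), and lower in CAOV3 than in SKOV3 (log2 -0.98, SE 0.24, adjusted p = 0.00535). MAX was lower in OVCAR-3, at 35.2 to 38.5 CPM, and in CAOV3, at 34.0 to 44.8 CPM, than in SKOV3 at 48.0 to 56.2 CPM, and OVCAR-3 and CAOV3 did not differ beyond their spread (log2 -0.02, interval -0.33 to 0.30).

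MXI1 had 42.2, 45.0 and 63.6 CPM in OVCAR-3, 24.3, 24.3 and 31.5 CPM in CAOV3 and 107, 107 and 118 CPM in SKOV3. The order SKOV3, OVCAR-3, CAOV3 held without overlap, and each step passed (OVCAR-3 over CAOV3 log2 0.91, SE 0.12; OVCAR-3 over SKOV3 -1.14, SE 0.12; CAOV3 over SKOV3 -2.05, SE 0.12). MXD3 was higher in OVCAR-3, at 9.02 to 19.8 CPM (log2 0.85, SE 0.25), and in CAOV3, at 16.9 to 20.2 CPM (log2 1.2, SE 0.25), than in SKOV3 at 7.37 to 8.73 CPM. MXD4 was lower in OVCAR-3, at 61.6 to 74.6 CPM, than in SKOV3 at 77.1 to 121 CPM. CAOV3 overlapped with SKOV3 for MXD4, at 71.2 to 78.3 CPM, and was lower by the fit (log2 -0.44, SE 0.14, adjusted p = 0.0218).

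MGA was higher in OVCAR-3, at 60.2 to 72.3 CPM, than in CAOV3 at 39.4 to 51.3 CPM, and lower in CAOV3 than in SKOV3 at 68.4 to 89.0 CPM. MNT did not pass in any pair of lines, at 18.4 to 25.4 CPM over all GSK-J5 libraries of 72 h, and neither did MXD1. In all, 5 members differed for OVCAR-3 over CAOV3 (56.8% of 17966 genes), 6 for OVCAR-3 over SKOV3 (59.5%) and 7 for CAOV3 over SKOV3 (62%), shares near those of all genes. Line and culture medium cannot be told apart here. In the first set alone the counts were 6 (62.2%), 7 (64.7%) and 9 (67.2%) in that order. For OVCAR-3 over CAOV3 the count was 3 without any 1 of the OVCAR-3 libraries or without CAOV3 replicate 1 or 2, and MYC lost its call there in each case. For CAOV3 over SKOV3 it was 4 without SKOV3 replicate 1. Calls over all genes also changed with libraries left out, and the fall in members cannot be told from that.

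To compare genes with each other, CPM was divided by the length of the gene's exons in kilobases. With GSK-J5 at 72 h in OVCAR-3 the order of levels was MXI1 (10.9 ± 2.53 CPM per kb), MYCL (10.4 ± 0.95), MXD4 (9.67 ± 0.919), MAX (8.41 ± 0.409), MYC (7.87 ± 2.26), MGA (3.81 ± 0.357), MXD3 (2.92 ± 1.06), MNT (2.80 ± 0.0748), MXD1 (2.59 ± 0.558) and MYCN (0.787 ± 0.188; SD, n = 3). MXI1 and MYCL, MYCL and MXD4, MAX and MYC, MGA and MXD3, MXD3 and MNT, and MNT and MXD1 differed by less than the larger SD of the pair. By the length of the longest transcript the first places were MYCL (16.2 CPM per kb), MXD4 (16.1), MXI1 (14.5), MAX (11.8) and MYC (9.99). With GSK-J4 at 48 h MYC headed the order at 39.3 ± 4.72 CPM per kb (SD, n = 2), ahead of MXI1 at 15.6 ± 1.12, MYCL at 15.4 ± 1.44 and MAX at 13.5 ± 1.34. MXI1 and MYCL differed by less than the SD there, and by the longest transcript MYCL (24 CPM per kb) lay ahead of MXI1 (20.8), with MYC first at 49.9.

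The MYC family and its antagonists were also summed per kilobase as a ratio of MYC, MYCN and MYCL over MXD1, MXD3, MXD4, MXI1, MNT and MGA. This ratio was 1.79 and 1.81 with GSK-J4 in OVCAR-3 at 48 h, against 0.626 and 0.585 with GSK-J5. At 72 h the GSK-J4 libraries had 0.983, 1.03 and 0.715, and the GSK-J5 libraries 0.586, 0.572 and 0.591. All OVCAR-3 libraries with GSK-J4 were higher, and MYC itself made up 68.3% and 74.6% of the family sum with GSK-J4 at 48 h, against 38.6% and 41.4% with GSK-J5.

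In CAOV3 the ratio averaged 0.463 ± 0.0399 with GSK-J4 and 0.469 ± 0.0418 with GSK-J5 (SD, n = 3 each), and in SKOV3 0.533 ± 0.366 and 0.555 ± 0.31 with these compounds. In both lines the compounds overlapped, and the wide spread in SKOV3 came from replicate 3, at 0.955 with GSK-J4 and 0.912 with GSK-J5. The antagonists' own sum overlapped between the compounds in OVCAR-3 at 48 h, with 29.4 and 31.7 CPM per kb with GSK-J4 and 29.1 and 31.6 CPM per kb with GSK-J5, with MXI1 higher and MXD3, MXD4 and MGA lower in both GSK-J4 libraries. At 72 h that sum was 37.6, 39.5 and 32.4 CPM per kb in the GSK-J4 libraries and 31.9, 31.7 and 34.5 CPM per kb in the GSK-J5 libraries, higher in the pairs of replicates 1 and 2 and lower in that of replicate 3. The ratio sums transcripts and says nothing of protein.

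**Figure D4:**
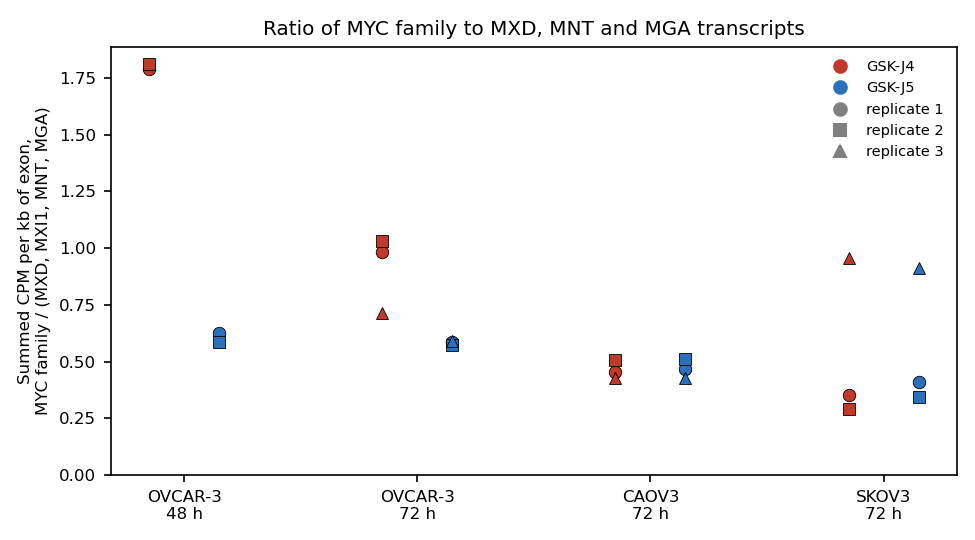
Ratio of summed CPM per kb of exon of MYC, MYCN and MYCL over MXD1, MXD3, MXD4, MXI1, MNT and MGA (linear axis from 0) in each library, with GSK-J4 left of GSK-J5. OVCAR-3 libraries with GSK-J4 lie at 0.715 to 1.81 and those with GSK-J5 at 0.572 to 0.626, and the second-set SKOV3 libraries stand apart at 0.955 and 0.912.

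Genes outside the network that act with it were read from lists chosen with earlier results of these data known. Their counts at 48 h stand against 11.3% of all genes higher and 7.63% lower, or 29.1% and 29.8% in the fit without replicate 3. Of the 5 genes listed for the MLX branch, which uses the MAX-like partner MLX, 3 were higher and 0 lower with GSK-J4 in OVCAR-3 at 48 h, with a median log2 of 1.05 against -0.03 over all 17402 genes. They were MLX (log2 1.05, SE 0.25) and the glucose-responsive arrestins ARRDC4 (2.35, SE 0.59) and TXNIP (2.11, SE 0.53). The listed transcription factors MLXIP (0.00, SE 0.15) and MLXIPL (-0.24, SE 0.34) did not pass. Of 10 partners of MGA in PRC1.6, 4 were higher and 1 lower, with YAF2 (1.66, SE 0.24) and RYBP (1.39, SE 0.39), subunits of Polycomb complexes, as the highest and CBX3, a heterochromatin protein, as the lower one (-0.71, SE 0.14). Of 10 corepressors of MXD and MNT, 1 was lower, the histone-binding RBBP7 (-0.91, SE 0.22), and none was higher, near the share of all genes. Without replicate 3, 4 corepressors were higher and 2 lower, and of the PRC1.6 partners 6 were higher and 3 lower.

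Of 30 genes known as activated by MYC, 7 were higher and 3 lower in OVCAR-3 at 48 h, against 11.3% and 7.63% of all genes, with a median log2 of 0.36 against -0.03 over all genes. Without replicate 3 it was 17 higher and 9 lower. The highest were SLC3A2 (3.09, SE 0.77) and SLC7A5 (1.99, SE 0.37), the chains of an amino acid transporter, and the lowest MAT2A (-1.94, SE 0.37), which makes S-adenosylmethionine, and LDHA (-0.79, SE 0.17), a glycolysis enzyme. Of 10 genes known as repressed by MYC, 3 were higher and 1 lower, namely the growth arrest genes GADD45A (4.19, SE 0.75) and CDKN1A (1.14, SE 0.17) and the differentiation factor CEBPA (1.04, SE 0.28) as higher and the cell cycle inhibitor CDKN2C (-3.66, SE 0.94) as lower. The median log2 of these 10 genes was -0.06, so their median and their count of calls differ in sign. Without replicate 3, 3 of them were higher and 3 lower. Among 10 regulators of MYC protein turnover, 2 were higher and 2 lower, with the deubiquitinase USP36 (1.54, SE 0.36) highest and the ubiquitin ligase subunit SKP2 (-0.92, SE 0.24) lowest.

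In OVCAR-3 at 72 h none of these list genes passed with all replicates. In the first set alone 18 of the 30 MYC-activated genes were higher and 6 lower, with a median log2 of 0.89 against -0.09 over all 16281 genes, of which 34.6% were higher and 37.1% lower. SLC3A2 (4.10, SE 0.11) and RRP9, a factor of ribosome assembly (2.18, SE 0.11), were the highest, and MAT2A (-2.13, SE 0.12) and CAD, an enzyme of pyrimidine synthesis (-1.48, SE 0.11), the lowest. Of the 10 MYC-repressed genes 3 were higher and 4 lower in the same fit, with GADD45A (4.67, SE 0.14) highest and CDKN2C (-4.59, SE 0.29) lowest and a median log2 of 0.20. The MLX branch list had 3 of 5 higher and 1 lower, the PRC1.6 partners 6 of 10 higher and 2 lower, the corepressors 5 of 10 higher and 3 lower, and the turnover regulators 3 of 10 higher and 3 lower. In CAOV3 and SKOV3 none of the list genes passed with all replicates, and the median log2 of the 30 MYC-activated genes was 0.02 in CAOV3 and -0.01 in SKOV3. In the first set alone some list genes passed in CAOV3, where 6.7% of all genes were higher and 7.38% lower. Of the MYC-activated genes that passed, AMD1 (0.38, SE 0.09) and CDK4 (0.36, SE 0.11) were the highest. NCL (-0.78, SE 0.07) and UBTF (-0.65, SE 0.09) were the lowest. Of the corepressors, NCOR1 was the lowest (-1.02, SE 0.10), and none passed as higher.

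The genes whose pattern was most like that of each member were found by Pearson r over the 11 same-numbered log2 ratios, among 11171 genes expressed in all lines. Those nearest to MYC were EPHA2 (r = 0.998), PROSER2 (0.996) and TRIB3 (0.994). Those nearest to MXD3 were PSRC1 (0.984), PAIP2B (0.979) and LINC00680 (0.971), and those nearest to MXD4 were ARRB1 (0.993), GPR161 (0.992) and OXLD1 (0.990). MXI1 was nearest to TERF2 (0.994), MGA to MOB3C (0.961), MAX to ZNF227 (0.968), MYCL to NEK9 (0.948), MNT to MBD5 (0.928) and MXD1 to C11orf24 (0.920). These r describe the pattern over pairs that share lines and library sets, and the 4 first-set OVCAR-3 pairs hold most of the range.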

How the data were processed

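RNA sequencing of 3 cell lines was read from 3 tables of raw read counts per gene, which the authors deposited for the whole series. Reads were aligned to GRCh38 (hg38), and STAR and DESeq2 are named, per the submitters' processing notes, which give no roles or versions. The counter, its strand setting and the annotation are steps not given in the sources used here. The OVCAR-3 column with a shortened header was read as GSK-J4 at 72 h, replicate 3, the sample left without a column.

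Of the 58825 gene identifiers, 58472 were named from a gene name table and 335 from GENCODE 29, and 18 stayed unnamed. Genes kept by filterByExpr (minimum count 10) were tested with edgeR's quasi-likelihood test (edgeR 4.0.16, limma 3.58.1, R 4.3.3), with TMM scaling, the library set as a term and Benjamini-Hochberg adjustment over all genes tested, at a threshold of 0.05. The 48 h effect and the time difference came from the 10 OVCAR-3 libraries, each 72 h effect from its line's 6 libraries, line differences from 18 libraries with the set nested in line, and GSK-J5 levels from 9. SE is the log2 change over the root of F. The prior count was 0.125 for fitted changes, and 0.5 CPM was added for pair ratios. Scripts were tested on simulated data. Tables were built in Python 3.11.15 with pandas 2.3.3. Alternatives used DESeq2 1.42.0 and its size factors, no filter, no set term, a replicate block, single libraries or replicates left out, and library totals.

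All 10 members are named. One further list is not reported here. From each other list at most the 2 highest and 2 lowest called genes are named, with MLXIP and MLXIPL besides, and for each member the 3 most alike genes at most. The members and lists were chosen with earlier results of these data known. Exon lengths and overlaps are from GENCODE 29, in which 8 of the 10 members carry another identifier version. Limits from counts cover counting error only. Deviations of same-numbered libraries from their group means had correlations of 0.203, 0.2 and 0.54 in SKOV3, each over 0.1. These correlations were lower in CAOV3 (0.0338, 0.00509 and 0.103) and OVCAR-3 (-0.0625 to 0.0332). The library set was not removed from the deviations, so pairing beyond the set was not tested.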

Additional observations from a re-analysis of the deposited data

Results flagged for a closer look

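The tests of the difference in GSK-J4 effect between lines at 72 h, edgeR's quasi-likelihood test over 18 libraries, gave 9 differences among the members. Between OVCAR-3 and CAOV3 these were MYC (log2 1.70), MXI1 (1.28), MXD3 (-1.94) and MXD4 (-1.09). Between OVCAR-3 and SKOV3 they were MYC (1.74), MXI1 (1.05), MXD3 (-2.27), MXD4 (-0.93) and MGA (-0.70). A positive value is a higher effect in OVCAR-3. When the replicate number was a block, MYC and MXI1 lost their calls against CAOV3, and MYC, MXI1, MXD4 and MGA against SKOV3. The MYC estimate against CAOV3 stayed at 1.70, with an SE of 0.46 against 0.41. Without replicate 1 or replicate 2 of every line none of the 9 passed.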

How the results depend on the processing

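Of 2198 log2 values of members under alternatives, 1940 kept their side of the threshold, 114 passed newly, 144 no longer passed and 0 called values changed sign. Among the 1940 were 82 whose sign differed but which passed in neither fit. The cause of the changes below was not tested, except that fewer libraries carry fewer degrees of freedom.

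With DESeq2, 7 members and 5864 genes passed at 48 h in OVCAR-3 (2936 higher and 2928 lower, against 1969 and 1327 of 3296), 6 members and 6284 genes at 72 h (against 0 and 5), 1 member and 244 genes for 72 h minus 48 h (0 and 1), 672 genes in CAOV3 (52), 20 in SKOV3 (7) and 7 for CAOV3 minus SKOV3 (0). Without the low-count filter 2 members and 1326 genes passed at 72 h in OVCAR-3, 20 genes for 72 h minus 48 h, 832 in CAOV3, 31 in SKOV3 and 87 for CAOV3 minus SKOV3. Without the library set term it was 1 member and 811 genes at 48 h, 1 gene at 72 h, 0 in CAOV3, 0 in SKOV3, 2 members and 681 genes for OVCAR-3 minus CAOV3, and 1 member and 798 genes for OVCAR-3 minus SKOV3. With library totals 2180 genes passed at 48 h, 3 at 72 h and 0 for 72 h minus 48 h. Library totals also turned the split for OVCAR-3 minus CAOV3 to 1280 higher and 2891 lower (2539 and 1491 by TMM) and for OVCAR-3 minus SKOV3 to 1217 and 3544 (2601 and 1750).

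The fit of the 4 libraries of 48 h called 9 members and 10206 genes. At 72 h in OVCAR-3 the 10-library fit called 7 members and 7618 genes, and the 18-library fit 6 members and 7776 genes, with 0 genes in CAOV3 and 0 in SKOV3.

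With the replicate block 0 members and 0 genes passed at 48 h (4765 genes at an unadjusted p under 0.05), 0 genes at 72 h, 0 for 72 h minus 48 h, 0 in CAOV3 and 24 in SKOV3. The block left 2 members and 1217 genes for OVCAR-3 minus CAOV3, and 1 member and 1079 genes for OVCAR-3 minus SKOV3. It changed no member call in CAOV3, SKOV3, CAOV3 minus SKOV3 or the GSK-J5 levels.

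Leaving out 1 replicate or library, the counts of members and genes ranged over 0 to 9 and 0 to 10108 at 48 h, 0 to 9 and 0 to 11714 at 72 h in OVCAR-3, and 0 to 5 and 0 to 4621 for 72 h minus 48 h. They ranged over 0 to 7 and 0 to 8587 for OVCAR-3 minus CAOV3, 0 to 7 and 0 to 8744 for OVCAR-3 minus SKOV3, and 0 to 448 genes for CAOV3 minus SKOV3. In CAOV3 0 to 2371 genes passed and in SKOV3 4 to 38, with 0 members in both. For GSK-J5 levels the ranges were 2 to 6 and 6162 to 11608 for OVCAR-3 over CAOV3, 3 to 7 and 6728 to 12081 for OVCAR-3 over SKOV3, and 4 to 9 and 7195 to 12543 for CAOV3 over SKOV3. With 2 or 3 libraries per compound, a lone library left in a group is assumed to vary like the others. MYCN, at 25 counts or fewer with GSK-J4 in every library, is limited by depth.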
